A study of Mus musculus with 24 samples.

Results

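The mitochondrial respiratory chain was followed through osteoclast formation in mouse bone-marrow cultures by RNA sequencing. The members are protein-coding genes whose symbols match the family names of subunits of complexes I to V of oxidative phosphorylation. These families are numbered Nduf, Sdh, Uqcr, Cyc1, Cox4 to Cox8 and Atp5. The protein-coding genes of mitochondrial DNA, whose symbols start with mt-, are members too. Matching by symbol also takes in Atp5s, Cox7a2l and Ndufa4l2, which are not constitutive subunits, and can miss subunits named otherwise. The rule was applied to symbol and biotype alone and found 99 genes of the 54532 in the deposited table. Of these, 86 are encoded in the nucleus (35 of complex I, 4 of complex II, 9 of complex III, 20 of complex IV and 18 of complex V) and 13 in mitochondrial DNA (7 of complex I, 1 of complex III, 3 of complex IV and 2 of complex V). Ndufa4 and its paralog Ndufa4l2 were counted with complex IV, where the Ndufa4 protein resides.

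Complexes I and II feed electrons from NADH and succinate to ubiquinone, complex III passes them on to cytochrome c, and complex IV reduces oxygen. Complexes I, III and IV pump protons across the inner membrane, and complex V, the ATP synthase, uses the gradient. Complex II is built from nuclear genes alone, whereas the other complexes join nuclear subunits with subunits translated inside mitochondria from mitochondrial DNA, which is transcribed as long polycistronic RNAs by its own polymerase. Osteoclasts, the multinucleated cells that resorb bone, are rich in mitochondria and form from macrophage precursors when RANKL, a cytokine of the TNF family, acts together with M-CSF, the survival and growth factor of macrophages.

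The series holds 24 libraries in 8 groups of 3, and asks how raised Runx1 in myeloid cells bears on osteoclast formation. Cells labelled as overexpressing Runx1 carried LysM-Cre, a Cre recombinase driven by the lysozyme M promoter, which is active in myeloid cells, together with 1 copy of the Rosa26-Runx1 transgene. Cells labelled as wild-type control carried the same Rosa26-Runx1 transgene without Cre, so the transgene is common to all 8 groups. From each genotype, bone-marrow macrophages were cultured for 3 or 5 days either with RANKL at 50 ng/mL on top of 30 ng/mL M-CSF (called RANKL cultures here) or with M-CSF without RANKL, at a dose not stated for these wells (M-CSF cultures). The age and sex of the mice, and whether libraries with the same number come from the same mouse, are not stated in the labels, and p-values measure the spread between these libraries.

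Each library held between 18975750 and 36523995 counts, so that 1 read was worth 0.0286 to 0.0541 counts per 1e6 counts (CPM), which limits precision for rare transcripts. Runx1 itself, the gene to be overexpressed, averaged 57.9 ± 8.23 CPM in LysM-Cre and 51.5 ± 0.862 CPM in control RANKL cultures at day 3, and 86.0 ± 11.7 CPM in LysM-Cre and 79.3 ± 12.8 CPM in control M-CSF cultures (SD, n = 3 each). At day 5 it averaged 80.5 ± 15.1 CPM in LysM-Cre and 68.5 ± 2.55 CPM in control RANKL cultures, and 106 ± 3.96 CPM in LysM-Cre and 105.7 ± 11.9 CPM in control M-CSF cultures. Runx1 was not called different between genotypes, so LysM-Cre and control are used here as names of labels. The 4 LysM-Cre libraries numbered 3, 1 in each group of that genotype, stood apart: they held 542 to 847 counts of Y-linked genes and 2 to 12 of Xist, against 0 to 1 and 14963 to 28379 in the other libraries. Osteoclast and macrophage markers followed the culture labels. In RANKL cultures of day 3, 10 osteoclast marker genes, among them Ctsk, Acp5 and Calcr, together made up 37100.1 to 59879 CPM, against 137 to 175 CPM in M-CSF cultures. The 8 macrophage markers together reached 3006 to 4633 CPM in RANKL cultures and 7419 to 9498 CPM in M-CSF cultures at that day, and none of them was at 0 in any group.

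Promoters of these genes are described first, and their part in the levels was not tested. The RefSeq promoter table (build GRCm38.p6, 250 bases before to 50 after the annotated start) held 68 of the 86 nuclear members. The letters GCGCNTGCG, a form of the NRF1 binding motif, were found on either strand in 23 of the 68 (33.8%), and in 7.12% of the 27025 genes of the table. AAGATGGCG, bound by YY1, was found in 7 of the 68 (10.3%) and in 1.64% of all genes. TCAAGGTCA, the motif of the estrogen-related receptors, was in 2 of the 68 (2.94%) and in 0.466% of all genes, and CCGGAAGTG, the ETS motif bound by GABPA, in 2 of the 68 (2.94%) and in 2.25%. The promoters of 3 members are printed 5′ to 3′ with the matches in capitals: that of Sdha, which holds 3 matches to the NRF1 letters, and those of Sdhd and Atp5g3, the 2 members that hold an estrogen-related receptor match beside an NRF1 match. They lie at chr13:74350191-74350490, chr9:50603800-50604099 and chr2:73911277-73911576, all on the minus strand. A match describes letters and shows neither binding nor a cause.
Sdha: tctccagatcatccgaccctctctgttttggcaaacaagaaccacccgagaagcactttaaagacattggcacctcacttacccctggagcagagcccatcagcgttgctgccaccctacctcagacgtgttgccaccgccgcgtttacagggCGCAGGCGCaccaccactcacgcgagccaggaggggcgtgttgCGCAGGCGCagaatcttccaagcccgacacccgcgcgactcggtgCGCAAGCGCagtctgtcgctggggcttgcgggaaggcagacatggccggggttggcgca
Sdhd: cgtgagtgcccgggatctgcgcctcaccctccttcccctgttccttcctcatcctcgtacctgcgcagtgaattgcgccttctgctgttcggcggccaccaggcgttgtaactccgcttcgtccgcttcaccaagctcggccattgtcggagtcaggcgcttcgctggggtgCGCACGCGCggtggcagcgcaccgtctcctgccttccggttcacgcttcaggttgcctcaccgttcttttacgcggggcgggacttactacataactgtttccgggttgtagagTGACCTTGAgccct
Atp5g3: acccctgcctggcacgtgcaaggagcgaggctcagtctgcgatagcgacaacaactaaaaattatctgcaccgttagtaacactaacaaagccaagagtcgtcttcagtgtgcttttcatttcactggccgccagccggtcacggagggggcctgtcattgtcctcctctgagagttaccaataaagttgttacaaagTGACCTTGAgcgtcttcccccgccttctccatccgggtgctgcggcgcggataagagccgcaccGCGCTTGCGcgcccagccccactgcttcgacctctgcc

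Transcripts of the respiratory chain took a larger share of the RNA in RANKL cultures than in M-CSF cultures of either genotype and at either day. At day 3, the 86 nuclear members together held 1.90% ± 0.104 of all counts in LysM-Cre RANKL cultures, against 0.706% ± 0.0260 in LysM-Cre M-CSF cultures (SD, n = 3 each). In control cells they held 1.93% ± 0.0792 in RANKL cultures, against 0.714% ± 0.0396 in M-CSF cultures. The 13 mitochondrially encoded members held 3.77% ± 0.650 in LysM-Cre RANKL cultures, against 1.88% ± 0.435 in LysM-Cre M-CSF cultures, and 3.55% ± 0.433 in control RANKL cultures, against 1.64% ± 0.0729 in control M-CSF cultures. No RANKL library fell within the range of the M-CSF libraries of its genotype in either sum. The ratio of RANKL to M-CSF means was 2.70 in LysM-Cre and 2.70 in control cells for the nuclear sum, and 2.00 and 2.16 for the mitochondrially encoded sum. These are bulk measurements, in which more cells of a type and more RNA per cell cannot be told apart.

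**Figure D1:**
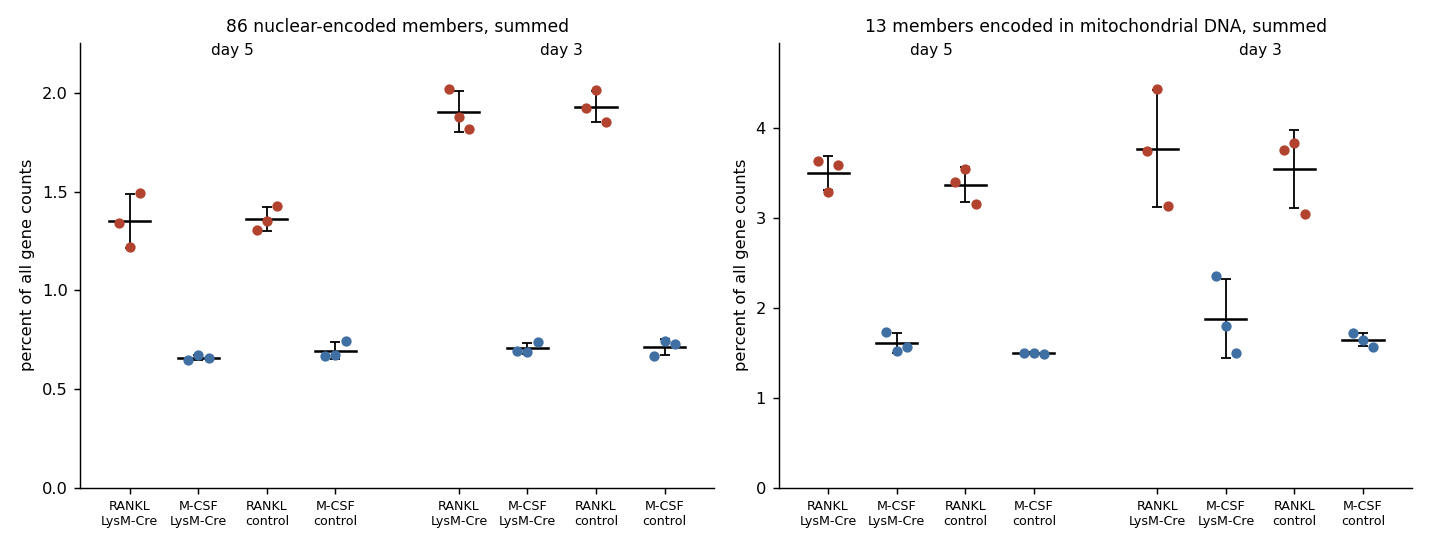
Summed counts of the nuclear members and of the mitochondrially encoded members as a percentage of all counts, with 1 point per library (red for RANKL, blue for M-CSF), lines for means and error bars for the SD, by genotype, culture and day. At day 3 the nuclear sum averaged 1.90% and 1.93% in LysM-Cre and control RANKL cultures, above the 0.706% and 0.714% of the M-CSF cultures.

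Of the 99 members, 92 had enough counts to be tested, 80 nuclear and 12 mitochondrially encoded. The 7 left out were Cox6a2, Cox8b, Ndufa4l2, Cox7b2, Cox8c, a second gene model named Atp5o, and mt-Atp8, which had at most 16 counts in any library. Of these, 3, Cox7b2, Cox8c and the second Atp5o model, had 0 counts in all 24 libraries. At day 3, 76 of the 80 nuclear members were called higher and 1 lower in LysM-Cre RANKL than in LysM-Cre M-CSF cultures (adjusted p under 0.05, edgeR quasi-likelihood test with Benjamini-Hochberg adjustment over 15035 genes), against a background of 29.1% of all tested genes called higher and 30.1% called lower. In control cells the counts were likewise 76 higher and 1 lower, with 29.5% of all genes called higher and 29.7% lower. The median log2 fold change of the nuclear members was 1.31 in LysM-Cre and 1.33 in control cells, while that of all tested genes was −0.02 and −0.03. All 12 tested mitochondrially encoded members were called higher in both genotypes, with medians of 1.33 and 1.48. At day 5, 73 nuclear members were called higher and 1 lower in LysM-Cre cells (median 0.91, background 27.5% higher and 24.9% lower), and 67 higher and 1 lower in control cells (median 0.77, background 26.4% and 23.1%). All 12 tested mitochondrially encoded members were again called higher, with medians of 1.11 in LysM-Cre and 1.23 in control cells. Without the LysM-Cre libraries numbered 3, 72 nuclear members were called higher and 1 lower at day 5 in LysM-Cre cells.

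By complex, the median response of the nuclear members at day 3 was smallest in complex I and largest in complex III. The median log2 fold change was 1.23 in LysM-Cre and 1.15 in control cells for complex I, 1.64 and 1.60 for complex II, 1.78 and 1.88 for complex III, 1.28 and 1.19 for complex IV, and 1.41 and 1.38 for complex V. All tested members of complexes II (4) and III (9) were called higher in both genotypes, as were 34 of 35 of complex I, 13 of 15 of complex IV and 16 of 17 of complex V. The difference between complexes was not tested. Levels per length are given as RPKM (reads per kilobase of the deposited gene length and 1e6 counts). This length can exceed the longest annotated transcript, as for Uqcrc1 (4135 against 2473 bases) and Ndufs1 (8086 against 2661 bases). The median level of the complex III genes averaged 172 RPKM in LysM-Cre RANKL cultures, against 43.8 RPKM in LysM-Cre M-CSF cultures. In control cells it averaged 180.1 RPKM in RANKL cultures, against 49.0 RPKM in M-CSF cultures. The median complex I gene stood at 51.4 RPKM in LysM-Cre RANKL and 23.3 RPKM in LysM-Cre M-CSF cultures, and at 53.7 RPKM in control RANKL and 24.7 RPKM in control M-CSF cultures.

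**Figure D2:**
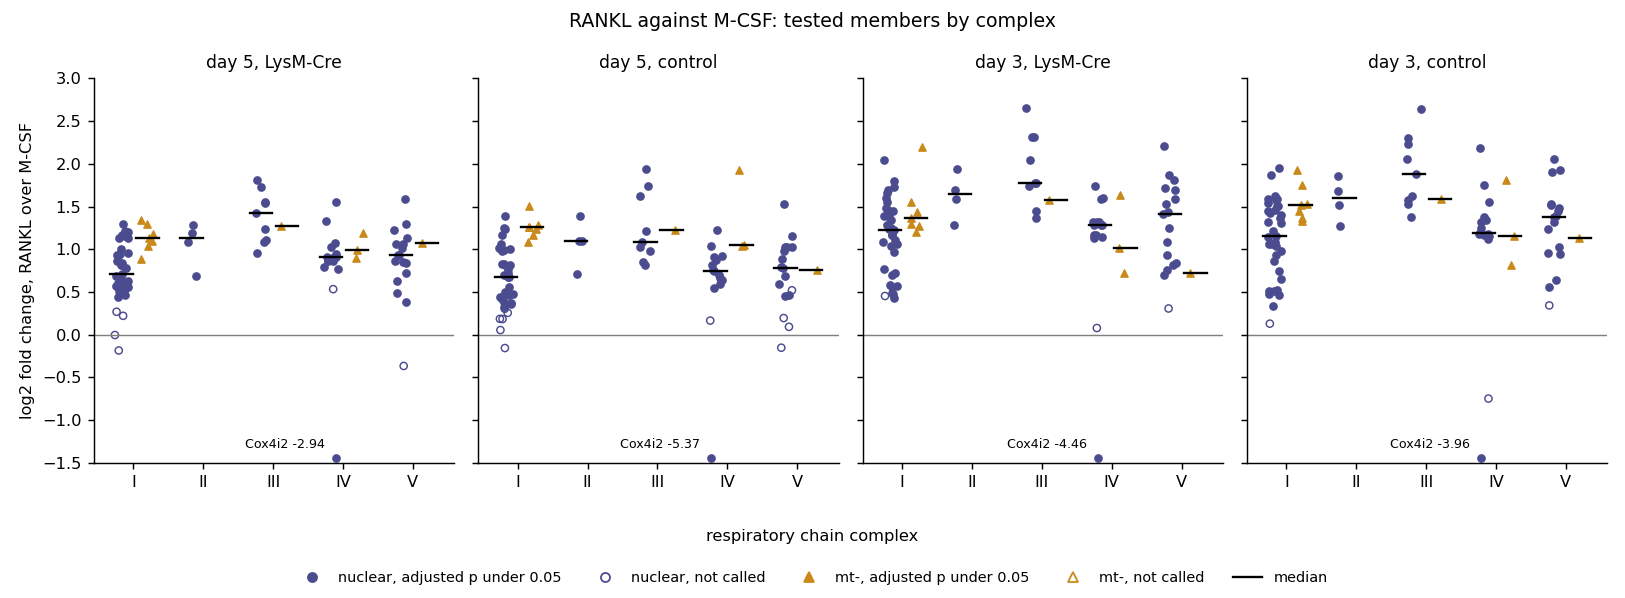
Log2 fold change of RANKL against M-CSF cultures for every tested member, by complex, in 4 panels for the days and genotypes. Filled symbols have an adjusted p under 0.05 and open ones do not, triangles are mitochondrially encoded members, black bars mark the medians of nuclear and of mitochondrially encoded members (1.78 and 1.88 for nuclear complex III at day 3 in LysM-Cre and control cells), and Cox4i2 lies beyond the lower edge, where its value is written.

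Complex I oxidises NADH. By the response in control cells at day 3, its leading nuclear member was Ndufv1, the flavoprotein subunit that takes electrons from NADH. Ndufv1 had 219, 194 and 187 CPM in LysM-Cre RANKL and 43.9, 52.0 and 49.3 CPM in LysM-Cre M-CSF cultures at day 3, and 207, 214 and 182 CPM in control RANKL and 54.0, 53.4 and 48.5 CPM in control M-CSF cultures. Every RANKL library lay more than 3-fold above every M-CSF library. The log2 fold change was 2.05 ± 0.09 in LysM-Cre (adjusted p = 1.86e-13, edgeR quasi-likelihood with Benjamini-Hochberg adjustment; ± is the standard error) and 1.95 ± 0.09 in control cells (adjusted p = 3.59e-13). Ndufs1, the large iron-sulfur subunit that hands the electrons on, averaged 287 ± 30.6 CPM in LysM-Cre RANKL and 82.2 ± 6.93 CPM in LysM-Cre M-CSF cultures, and 284 ± 22.7 CPM in control RANKL and 77.9 ± 4.28 CPM in control M-CSF cultures (SD, n = 3). At the other end stood the accessory subunits Ndufb2 and Ndufv3. Ndufb2 had 5.34, 3.87 and 5.16 CPM in LysM-Cre RANKL and 3.58, 3.82 and 3.11 CPM in LysM-Cre M-CSF cultures, and was not called in any of the 4 comparisons (smallest adjusted p = 0.0629, edgeR). Ndufv3 averaged 59.9 ± 7.46 CPM in LysM-Cre RANKL and 43.0 ± 7.62 CPM in LysM-Cre M-CSF cultures at day 3, called at a log2 fold change of 0.48, and was not called at day 5. The accessory subunit Ndufa7 rose at day 3 by a log2 fold change of 0.43 in LysM-Cre and 0.47 in control cells, and stood at −0.01 and −0.16 at day 5, not called.

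Complex II, succinate dehydrogenase, also belongs to the citric acid cycle, and its 4 genes rose in every RANKL comparison. Sdha, the flavoprotein that oxidises succinate, had 1141, 1129 and 947 CPM in LysM-Cre RANKL and 263, 292 and 286 CPM in LysM-Cre M-CSF cultures at day 3, and 1115, 1091 and 903 CPM in control RANKL and 296, 291 and 273 CPM in control M-CSF cultures. The groups were far apart in both genotypes. Sdha changed by a log2 fold change of 1.94 ± 0.10 in LysM-Cre (adjusted p = 2.08e-12, edgeR) and 1.85 ± 0.10 in control cells (adjusted p = 4.06e-12). The iron-sulfur subunit Sdhb followed with 1.70 and 1.68, and the membrane anchors with 1.59 and 1.51 for Sdhd and 1.28 and 1.27 for Sdhc. Per length at day 3, Sdha stood at 260.0 RPKM and Sdhd at 246 RPKM in LysM-Cre RANKL cultures, against 67.9 RPKM and 81.8 RPKM in LysM-Cre M-CSF cultures. At day 5 Sdha still averaged 656 ± 95.5 CPM in LysM-Cre RANKL and 269 ± 5.15 CPM in LysM-Cre M-CSF cultures, and 681 ± 20.2 CPM in control RANKL and 261 ± 8.77 CPM in control M-CSF cultures (SD, n = 3).

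Complex III, the cytochrome bc1 complex, held the nuclear member with the largest day 3 response in both genotypes, Cyc1, which encodes the haem-bearing cytochrome that delivers electrons to cytochrome c. Cyc1 had 445, 384 and 411 CPM in LysM-Cre RANKL and 55.4, 57.4 and 85.0 CPM in LysM-Cre M-CSF cultures at day 3, and 415, 425 and 399 CPM in control RANKL and 54.8, 65.6 and 77.7 CPM in control M-CSF cultures. The lowest RANKL library lay over 4-fold above the highest M-CSF library. This was a 6.27-fold difference in LysM-Cre (log2 2.65 ± 0.15, adjusted p = 4.02e-12, edgeR) and 6.25-fold in control cells (2.64 ± 0.15, adjusted p = 4.33e-12). The core protein Uqcrc2 was 4.97-fold and 4.95-fold higher, although 23.8% of its 75-base stretches also occur in transcripts of the gene model Pdzd9, so that reads could be split between them. The small subunit Uqcr10 was 4.12-fold and 4.16-fold higher. The smallest responses of the complex in control cells, in Uqcrq, a ubiquinone-binding subunit, and Uqcrh, the hinge protein at the cytochrome c site, were still 2.58-fold and 3.43-fold in LysM-Cre and 2.59-fold and 2.89-fold in control cells. Uqcrq averaged 174 ± 11.1 CPM in LysM-Cre RANKL and 67.5 ± 6.36 CPM in LysM-Cre M-CSF cultures (SD, n = 3).

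**Figure D3:**
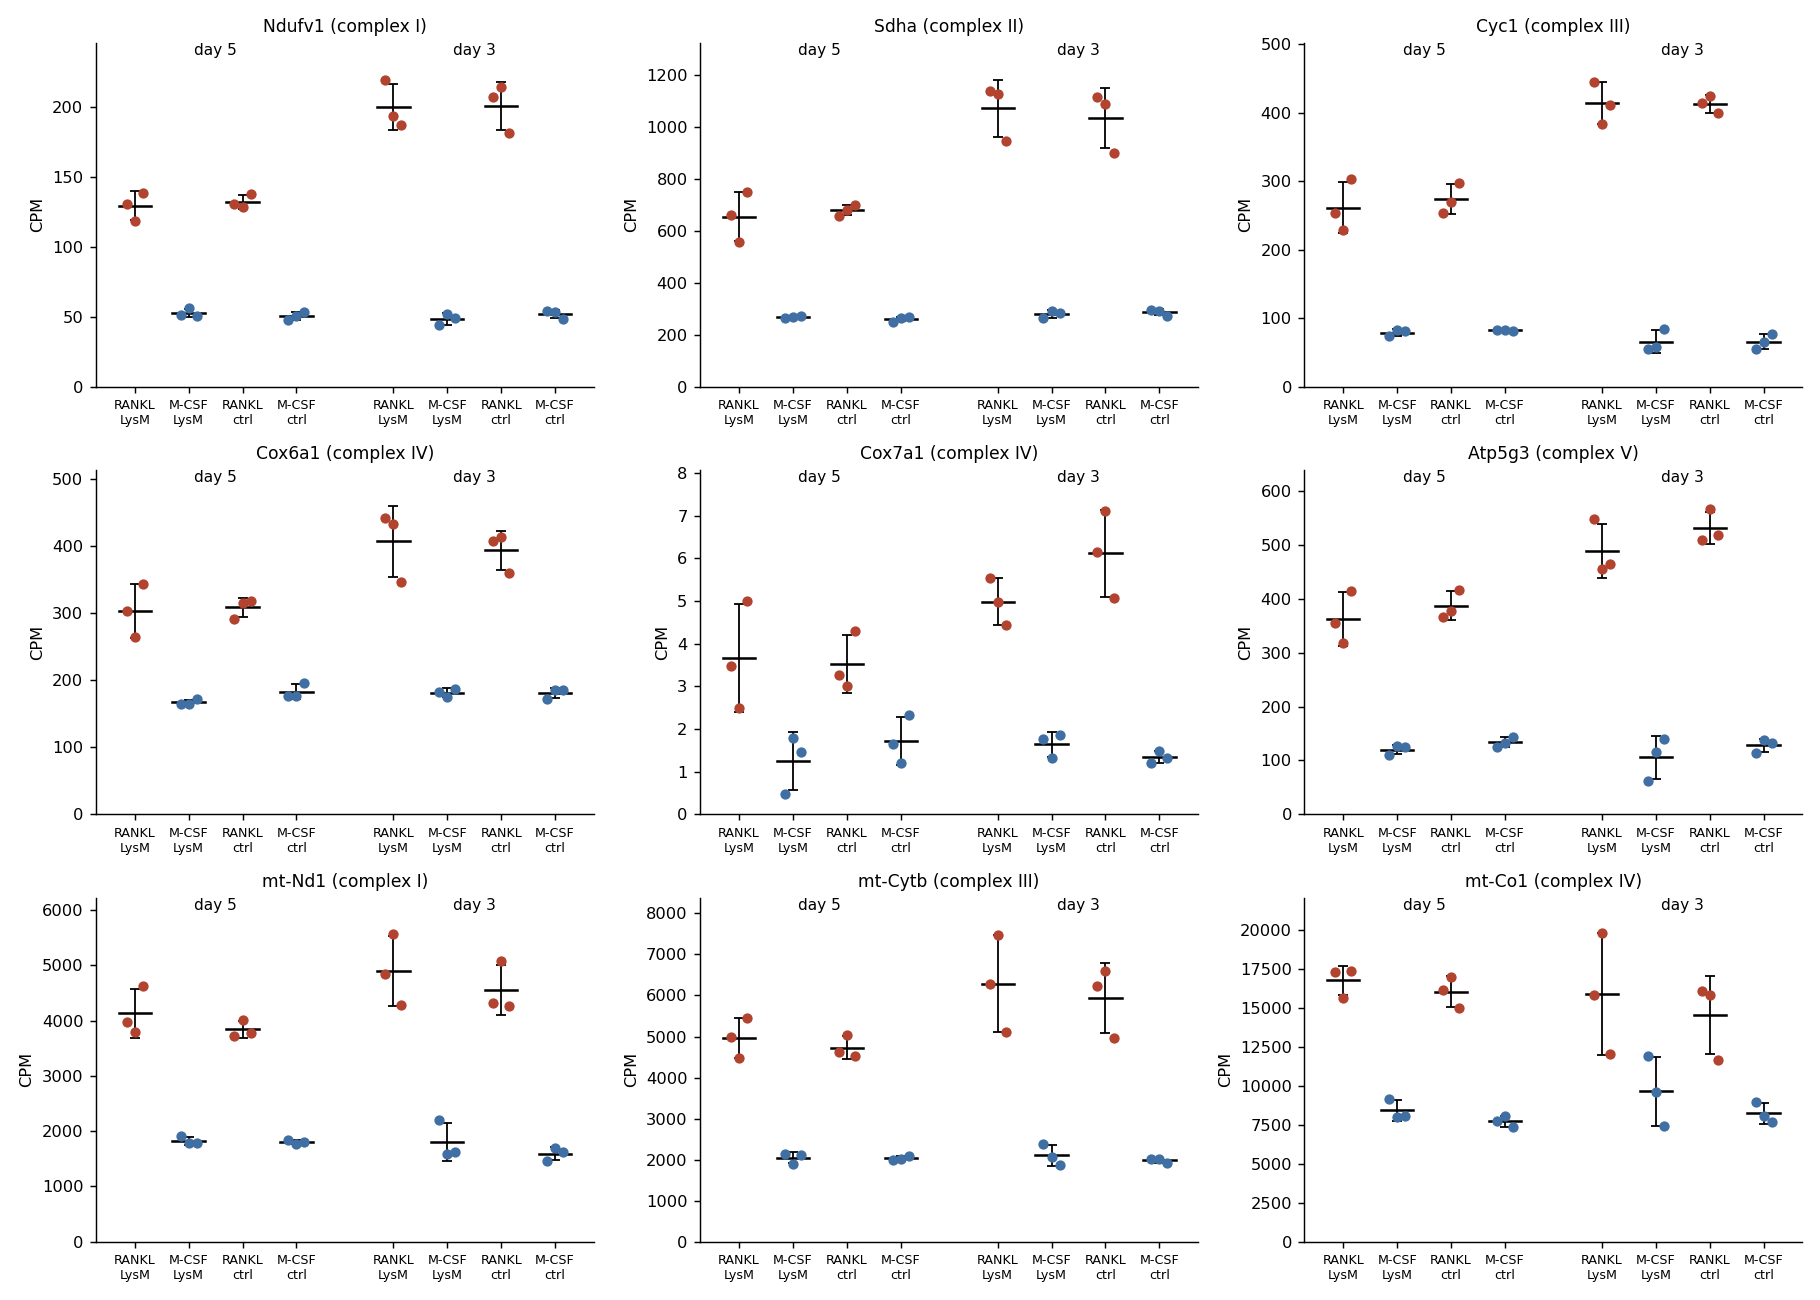
Levels of selected members in CPM, with each horizontal line the mean of 3 libraries, error bars the SD, points the libraries (red for RANKL, blue for M-CSF) and the axis starting at 0; LysM and ctrl stand for LysM-Cre and control cells. Cyc1 averaged 414 CPM in LysM-Cre RANKL and 66.0 CPM in LysM-Cre M-CSF cultures at day 3, and no Cyc1 library of the RANKL cultures fell to the level of an M-CSF library at either day.

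Complex IV, cytochrome c oxidase, has several subunits that exist as tissue isoforms, and the ubiquitous forms prevailed in all 8 groups. Cox4i1, the ubiquitous form of the regulatory subunit, had 718, 664 and 565 CPM in LysM-Cre RANKL and 297, 293 and 274 CPM in LysM-Cre M-CSF cultures at day 3, and 659, 670.4 and 577 CPM in control RANKL and 294, 281 and 269 CPM in control M-CSF cultures, without overlap. Its isoform Cox4i2, known from lung and from hypoxia, was the only member called lower in RANKL cultures, and was so in all 4 comparisons, but it rested on at most 23 counts per library. The 3 RANKL libraries held 1 count of Cox4i2 in all in LysM-Cre cells at day 3, against 32 in the M-CSF libraries, a ratio after scaling of 0.0342 with a 95% counting interval of 0.000841 to 0.205. In control cells the counts were 2 in RANKL and 39 in M-CSF libraries (0.0543, interval 0.00635 to 0.210). At day 5 they were 5 and 34 in LysM-Cre cells (0.126, interval 0.0385 to 0.324), and 1 and 50 in control cells (0.0179, interval 0.000444 to 0.104). These intervals cover counting error only.

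The muscle isoform Cox7a1 rose, at low levels. It had 5.55, 4.97 and 4.44 CPM in LysM-Cre RANKL and 1.77, 1.31 and 1.86 CPM in LysM-Cre M-CSF cultures at day 3, and 6.16, 7.12 and 5.08 CPM in control RANKL and 1.21, 1.49 and 1.33 CPM in control M-CSF cultures. The groups did not overlap, and the difference was 3.03-fold in LysM-Cre (adjusted p = 0.000291, edgeR) and 4.54-fold in control cells (adjusted p = 1.14e-05). Its ubiquitous counterpart Cox7a2 was higher per length, at 128 RPKM against 9.32 RPKM for Cox7a1 in LysM-Cre RANKL cultures, and rose 2.44-fold. A list of 7 stromal and muscle markers summed to 4.86 to 20.5 CPM in LysM-Cre RANKL and 9.20 to 26.6 CPM in LysM-Cre M-CSF cultures at day 3; its part in the Cox7a1 levels was not tested. Cox6a1, the ubiquitous partner of the muscle gene Cox6a2, averaged 407 ± 53.3 CPM in LysM-Cre RANKL and 182 ± 6.33 CPM in LysM-Cre M-CSF cultures (SD, n = 3), while Cox6a2 reached at most 0.548 CPM and had at most 11 counts in any library. Cox6b1 rose 2.50-fold in LysM-Cre and 2.27-fold in control cells, whereas the testis isoform Cox6b2 stayed at or under 1.12 CPM and was not called. Cox8a rose 2.21-fold and 2.25-fold, with 4 counts at most of its muscle isoform Cox8b in any library. Ndufa4 rose 3.33-fold and 3.38-fold, and Ndufa4l2, its hypoxia-induced paralog, had at most 8 counts. Cox7a2l, which encodes a factor that joins complexes III and IV into supercomplexes, rose 2.44-fold in LysM-Cre and 2.29-fold in control cells.

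Complex V, the ATP synthase, supplied 40.8% of the nuclear member counts in LysM-Cre RANKL and 39.8% in LysM-Cre M-CSF cultures at day 3, the largest part among the complexes. Atp5b, the catalytic beta subunit, had 2832, 2664 and 2408 CPM in LysM-Cre RANKL and 752, 601 and 818 CPM in LysM-Cre M-CSF cultures, and 2586, 2729 and 2414 CPM in control RANKL and 537, 719.9 and 778 CPM in control M-CSF cultures. All RANKL libraries were about 3-fold or more above all M-CSF libraries. Its log2 fold change was 1.86 ± 0.13 in LysM-Cre (adjusted p = 1.3e-10, edgeR) and 1.92 ± 0.13 in control cells (adjusted p = 8.79e-11). The membrane ring of the enzyme is built from subunit c, which Atp5g1, Atp5g2 and Atp5g3 encode with the same mature protein. Atp5g3 changed most of all complex V genes, 4.62-fold in LysM-Cre (adjusted p = 2.99e-09, edgeR) and 4.17-fold in control cells. Atp5g1 was 3.51-fold and 3.74-fold higher, and Atp5g2 1.62-fold and 1.55-fold. Per length, Atp5g3 stood at 224 RPKM, Atp5g2 at 87.8 RPKM and Atp5g1 at 45.6 RPKM in LysM-Cre RANKL cultures, against 48.6, 54.3 and 13.0 RPKM in LysM-Cre M-CSF cultures. In control cells the RPKM values were 244, 93.1 and 48.4 in RANKL and 58.5, 59.9 and 12.9 in M-CSF cultures. Atp5g3 was thus the highest of the 3 per length in RANKL cultures, while in M-CSF cultures Atp5g3 and Atp5g2 were too close to order. The deposited lengths used were 4912 bases for Atp5g1, 1675 for Atp5g2 and 2181 for Atp5g3. The longest annotated transcripts have 4715, 753 and 862 bases, so these levels depend on the length used. At day 5 in control cells Atp5g2 was no longer called (log2 0.19, adjusted p = 0.111, edgeR), nor were Atp5e and Atp5k. Atp5s, an ATP synthase factor outside the enzyme's core, stayed between 3.58 and 6.76 CPM in all 24 libraries and was not called in any RANKL comparison.

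Mitochondrial DNA encodes subunits of complexes I, III, IV and V. Among its genes mt-Co1, the catalytic subunit of complex IV, was by far the most abundant. It had 15850.1, 19829 and 12019.6 CPM in LysM-Cre RANKL and 11898, 9581 and 7461 CPM in LysM-Cre M-CSF cultures at day 3, and 16099, 15863 and 11656 CPM in control RANKL and 8976, 8073 and 7694 CPM in control M-CSF cultures. The groups lay close together in LysM-Cre cells, where the lowest RANKL and highest M-CSF libraries almost met, and the log2 fold change was 0.72 ± 0.17 (adjusted p = 0.000849, edgeR). In control cells it was 0.82 ± 0.17 (adjusted p = 0.000254, edgeR). mt-Cytb, the cytochrome b of complex III, had 6288, 7480.5 and 5103 CPM in LysM-Cre RANKL and 2375, 2054 and 1881 CPM in LysM-Cre M-CSF cultures, and 6242, 6607 and 4976 CPM in control RANKL and 2018, 2005 and 1921 CPM in control M-CSF cultures, a wide separation. It was 2.99-fold higher in LysM-Cre (adjusted p = 1.29e-09, edgeR) and 3.00-fold higher in control cells (adjusted p = 1.32e-09).

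The complex I subunits of mitochondrial DNA form part of its proton-pumping membrane arm. mt-Nd1 had 4844, 5559.7 and 4291 CPM in LysM-Cre RANKL and 2206, 1588 and 1622 CPM in LysM-Cre M-CSF cultures at day 3, and was 2.71-fold higher in LysM-Cre and 2.86-fold higher in control cells. mt-Nd2 was 2.94-fold and 3.37-fold higher, mt-Nd4 2.58-fold and 2.72-fold, and mt-Nd5 2.45-fold and 2.52-fold, all called. mt-Nd6, the gene that lies on the opposite strand to the others, was 2.41-fold and 2.58-fold higher; strand-specific counting is not stated, so its reads cannot be told apart from antisense RNA. Per length, mt-Co1 stood at 10291 RPKM, mt-Cytb at 5499, mt-Nd1 at 5118, mt-Nd5 at 2805, mt-Nd6 at 2791, mt-Nd2 at 2495 and mt-Nd4 at 1616 RPKM in LysM-Cre RANKL cultures. The neighbours mt-Cytb and mt-Nd1, and mt-Nd5, mt-Nd6 and mt-Nd2, differed by less than the spread between libraries.

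The remaining mitochondrial genes had far lower counts. mt-Nd3, mt-Nd4l, mt-Co2, mt-Co3 and mt-Atp6 stood at 106, 16.6, 20.4, 33.5 and 15.8 RPKM in LysM-Cre RANKL cultures. Between 97.8% and 99.9% of their 75-base stretches occur also in annotated nuclear pseudogenes such as Gm28661, Gm28437 and Gm10925, with 61.5% for mt-Nd4 and 39.8% for mt-Co1, so the values of these genes are uncertain; the part of this sharing in the levels was not tested. mt-Cytb, mt-Nd1, mt-Nd6 and the low-count mt-Atp8 shared none of their stretches. Among the shared genes, mt-Nd3 had 38.7, 33.0 and 38.9 CPM in LysM-Cre RANKL and 6.96, 8.27 and 8.85 CPM in LysM-Cre M-CSF cultures, and 32.2, 28.9 and 29.1 CPM in control RANKL and 6.62, 8.34 and 8.70 CPM in control M-CSF cultures, clearly apart. It was 4.59-fold and 3.81-fold higher, the largest day 3 response among the tested mitochondrially encoded members in both genotypes. mt-Co2 in control RANKL cultures of day 3 had 14.5, 39.9 and 10.6 CPM, and mt-Co3 in those of day 5 had 16.4, 18.6 and 55.4 CPM, so a single library stood high in each. mt-Atp8, too low to test, had 30 counts in LysM-Cre RANKL and 5 in LysM-Cre M-CSF libraries at day 3, and 20 in control RANKL and 10 in control M-CSF libraries. The ratio after scaling was 6.57 in LysM-Cre (95% counting interval 2.53 to 21.7) and 2.12 in control cells (0.946 to 5.07). For the 7 tested genes that share less than 95% of their stretches, all 7 were called higher in each of the 4 RANKL comparisons, with medians of 1.37 in LysM-Cre and 1.44 in control cells at day 3, and 1.18 and 1.23 at day 5.

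The balance of mitochondrially encoded and nuclear members was compared between cultures, without a test. The ratio of mitochondrially encoded to nuclear counts was 1.98 ± 0.336 in LysM-Cre RANKL and 2.68 ± 0.682 in LysM-Cre M-CSF cultures at day 3, with overlapping libraries, and 1.83 ± 0.167 in control RANKL and 2.31 ± 0.223 in control M-CSF cultures, without overlap (SD, n = 3 each). At day 5 it was 2.61 ± 0.175 in LysM-Cre RANKL and 2.44 ± 0.216 in LysM-Cre M-CSF cultures, and 2.48 ± 0.231 in control RANKL and 2.16 ± 0.140 in control M-CSF cultures. Within the mitochondrially encoded counts, mt-Co1 made up 41.0% in LysM-Cre RANKL and 53.4% in LysM-Cre M-CSF cultures at day 3, and 40.7% in control RANKL and 52.6% in control M-CSF cultures. At day 5 the shares were 47.5% and 51.3% in LysM-Cre, and 47.3% and 50.1% in control cells. Within the nuclear counts, complex III made up 13.6% in LysM-Cre RANKL and 9.80% in LysM-Cre M-CSF cultures at day 3, and 13.6% in control RANKL and 9.68% in control M-CSF cultures. Complex I moved the other way, with 18.05% in LysM-Cre RANKL and 21.2% in LysM-Cre M-CSF cultures, and 18.3% in control RANKL and 21.6% in control M-CSF cultures.

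**Figure D4:**
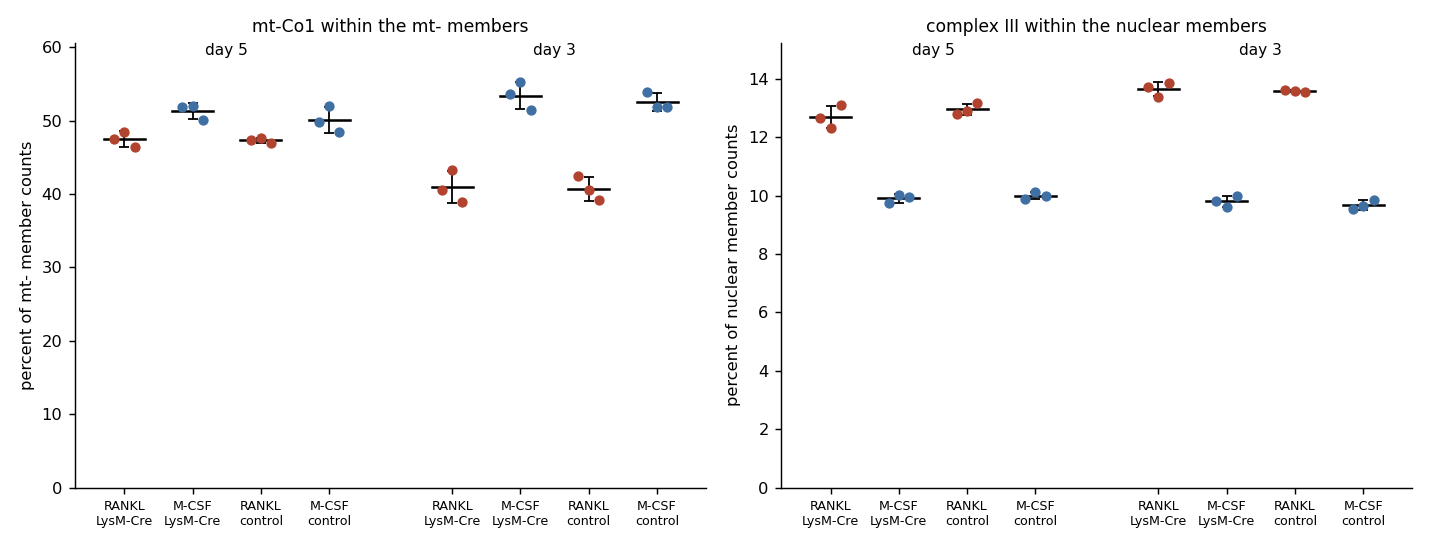
Share of mt-Co1 in the mitochondrially encoded counts and of complex III in the nuclear counts, in percent, with 1 point per library (red for RANKL, blue for M-CSF), lines for means and error bars for the SD, by genotype, culture and day. At day 3 mt-Co1 held 41.0% of the mitochondrially encoded counts in LysM-Cre RANKL and 53.4% in LysM-Cre M-CSF cultures, and complex III held 13.6% and 9.80% of the nuclear counts.

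With longer culture in RANKL many nuclear members were called lower and few mitochondrially encoded ones were. The difference between these sets was not tested, and a count of calls depends on the precision of each gene as well as on its decline. At day 5, 48 of the 80 nuclear members were called lower than at day 3 in LysM-Cre RANKL cultures and none higher, with a median log2 fold change of −0.39 and a background of 15.6% of all genes called lower and 17.6% called higher. In control RANKL cultures 59 were called lower and none higher, with a median of −0.45 and a background of 12.7% lower and 14.1% higher. With 1 library left out, the nuclear members called ran from 32 to 59 in LysM-Cre and from 42 to 58 in control RANKL cultures. The summed nuclear share at day 5 was 0.709 times that of day 3 in LysM-Cre and 0.705 times in control cells, and the mitochondrially encoded share 0.928 and 0.950 times. By complex, the members called lower in LysM-Cre cells were 16 of complex I, 4 of complex II, 7 of complex III, 11 of complex IV and 10 of complex V. In control cells they were 23, 4, 8, 11 and 13. Of 12 mitochondrially encoded members, 3 were called lower in LysM-Cre (mt-Nd3, mt-Cytb and mt-Co3) and 2 in control cells (mt-Nd3 and mt-Co2). The backgrounds are the same 15.6% and 12.7%. Nuclear pseudogenes hold 97.8% of the 75-base stretches of mt-Nd3, 99.9% of mt-Co3 and 99.5% of mt-Co2, so these values are uncertain, while mt-Cytb shares none. In control RANKL cultures of day 3, 1 library stood high for mt-Co2. The number of mitochondrially encoded members called in LysM-Cre cells was 6 without the libraries numbered 3. It was 1 without either library 1 or library 2 of the LysM-Cre RANKL cultures of day 3 or of day 5. In control cells the number was 1 without library 2 of day 3, library 2 of day 5 or library 3 of day 5.

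**Figure D5:**
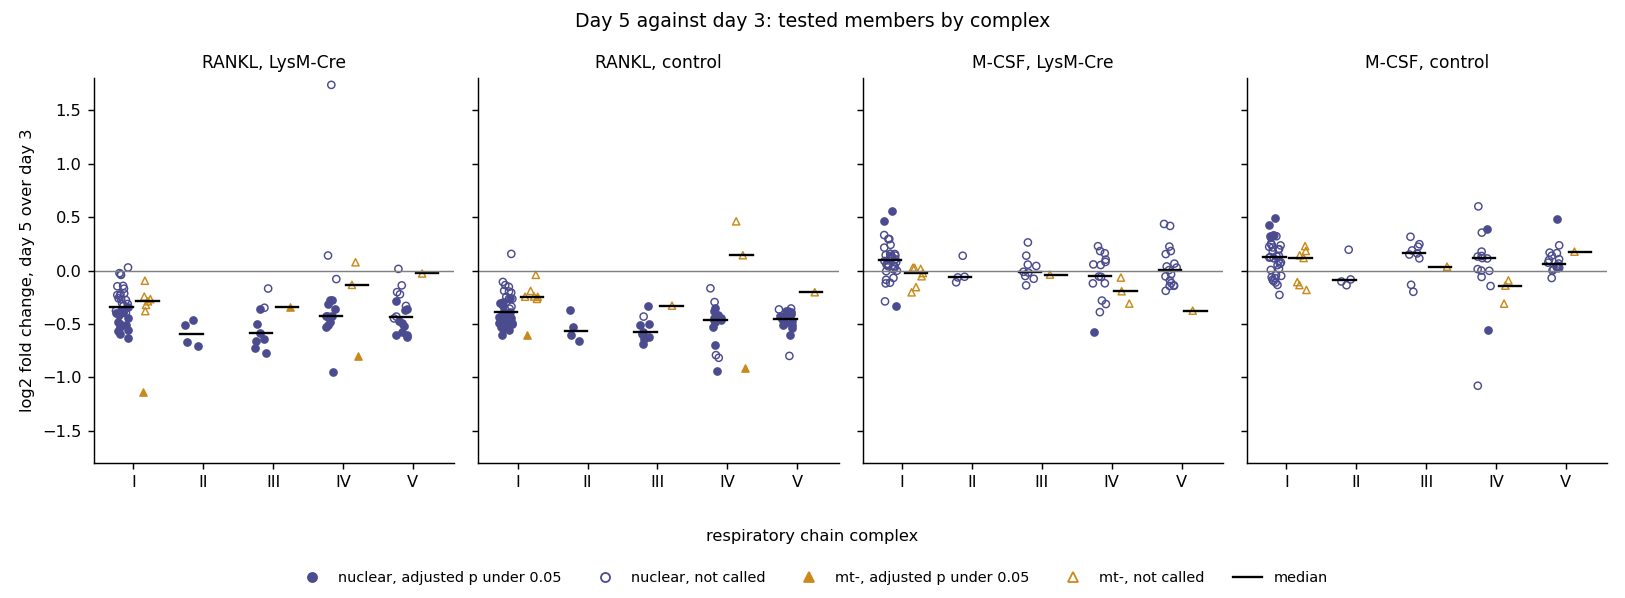
Log2 fold change of day 5 against day 3 for every tested member, by complex, in RANKL and M-CSF cultures of both genotypes, with filled symbols for an adjusted p under 0.05 and triangles for mitochondrially encoded members. In RANKL cultures 48 nuclear members in LysM-Cre and 59 in control cells were lower at day 5, against 2 and 1 in M-CSF cultures.

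The largest called decline among nuclear members in both genotypes was that of Cox7a2l, of whose 75-base stretches 13.4% occur also in the pseudogene Gm6969. It had 159, 146 and 179 CPM at day 5 and 337, 330.2 and 266 CPM at day 3 in LysM-Cre RANKL cultures, and 151, 149 and 182 CPM at day 5 and 337, 320.4 and 265 CPM at day 3 in control RANKL cultures. The days did not overlap, and the log2 fold change was −0.95 ± 0.14 in LysM-Cre (adjusted p = 3.81e-05, edgeR) and −0.94 ± 0.14 in control cells (adjusted p = 5.92e-05). Cox7a2l was also lower at day 5 in M-CSF cultures, by −0.57 in LysM-Cre and −0.56 in control cells. Uqcrc1, a core protein of complex III, declined by −0.77 and −0.65, Uqcrc2 by −0.72 and −0.57, Sdha by −0.71 and −0.61, and Sdhb by −0.67 and −0.66. mt-Nd3 had 18.3, 12.1 and 19.7 CPM at day 5 and 38.7, 33.0 and 38.9 CPM at day 3 in LysM-Cre RANKL cultures, and 20.5, 19.9 and 18.9 CPM at day 5 and 32.2, 28.9 and 29.1 CPM at day 3 in control RANKL cultures, and every library of day 5 lay below every library of day 3. The most abundant mitochondrial transcript, mt-Co1, had 17307, 15674 and 17349 CPM at day 5 in LysM-Cre RANKL cultures, within the range of day 3, and was not called (log2 0.08 in LysM-Cre and 0.14 in control cells).

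In M-CSF cultures few members were called different between the days. In LysM-Cre M-CSF cultures 2 nuclear members were called higher at day 5 (Ndufa12 and Ndufa7) and 2 lower (Cox7a2l and Ndufs8), with a median of 0.05 and a background of 7.17% higher and 7.09% lower. In control M-CSF cultures 6 were called higher (Atp5g1, Cox7c, Ndufa12, Ndufa7, Ndufb7 and Ndufs7) and Cox7a2l lower, with a median of 0.11 and a background of 12.2% and 11.5%. No mitochondrially encoded member was called in either genotype by edgeR, and none had an unadjusted p under 0.05. The count in LysM-Cre cells was 9 without library 3 of the LysM-Cre M-CSF cultures of day 3, 2 without library 2 of day 3 or library 3 of day 5, and 8 without all libraries numbered 3; in control cells it was 4 without library 1 of day 3 or library 3 of day 5.

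The RANKL response of many nuclear members was smaller at day 5 than at day 3. The difference between the day 5 and day 3 responses was called below 0 for 29 nuclear members in LysM-Cre cells (median −0.43, background 7.13%) and for 43 in control cells (median −0.53, background 6.73%). It was called above 0 for no nuclear member in either, against 8.09% and 7.26% of all genes. Ndufv1 showed it in both genotypes. Its level was 131, 118 and 139 CPM in LysM-Cre RANKL and 51.5, 56.2 and 50.9 CPM in LysM-Cre M-CSF cultures at day 5, and 130.4, 128 and 138 CPM in control RANKL and 47.4, 50.5 and 53.4 CPM in control M-CSF cultures, so the M-CSF level was close to that of day 3 and the RANKL level was lower. Its difference of log2 responses was −0.76 ± 0.13 in LysM-Cre (adjusted p = 0.000256, edgeR) and −0.56 ± 0.13 in control cells (adjusted p = 0.00429). Cyc1 had the largest called difference in LysM-Cre cells among nuclear members, −0.92 ± 0.20 (adjusted p = 0.00267, edgeR), with −0.91 ± 0.20 in control cells (adjusted p = 0.00327). Of the mitochondrially encoded members, mt-Nd3 was called in LysM-Cre cells (−1.16 ± 0.24, adjusted p = 0.00183), and none in control cells by edgeR, where 2 had an unadjusted p under 0.05 and DESeq2 called 1. As a share of raw totals, the mitochondrially encoded sum did not have a smaller ratio at day 5. The ratio of its RANKL to M-CSF means was 2.18 at day 5 and 2.00 at day 3 in LysM-Cre cells. In control cells it was 2.25 at day 5 and 2.16 at day 3. The TMM scaling factors used for CPM and the tests were 1.03 to 1.06 in control M-CSF libraries of day 3. In those of day 5 they were 0.965 to 0.979, so the order of the days in this ratio depends on the denominator. For the nuclear sum the ratios were 2.05 at day 5 and 2.70 at day 3 in LysM-Cre cells, and 1.96 at day 5 and 2.70 at day 3 in control cells. The largest part of the mitochondrially encoded sum is mt-Co1, whose response differed by 0.27 in LysM-Cre and 0.24 in control cells on the log2 scale, not called, while the medians over the 12 tested mitochondrially encoded members were −0.20 and −0.36. The number of nuclear members in LysM-Cre cells depended on single libraries: it was 17 without LysM-Cre RANKL library 1 of day 3, 19 without library 1, 12 without library 2 and 47 without library 3 of LysM-Cre RANKL day 5, and 48 without all libraries numbered 3. In control cells the number of nuclear members ran from 30 to 48 with 1 library left out.

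No member differed between genotypes by the edgeR test in any of the 4 culture and day combinations, and no member differed in its RANKL response between genotypes at either day; the background was 0% in all 6 comparisons. At an unadjusted p under 0.05, nuclear members numbered 0 in RANKL and 0 in M-CSF cultures of day 3, and 2 in RANKL and 2 in M-CSF cultures of day 5, and of the mitochondrially encoded members 1 did so, in RANKL cultures of day 5. Over all 15035 genes, 258 and 530 had an unadjusted p under 0.05 in RANKL and M-CSF cultures of day 3, and 457 and 947 in those of day 5. DESeq2 called 1, 3, 5 and 18 genes in the same order, and without the libraries numbered 3 edgeR called 6, 35, 39 and 110 genes; no member was among them under either. The smallest unadjusted p among members was that of mt-Co3 in RANKL cultures of day 5, with 15.8, 12.7 and 16.8 CPM in LysM-Cre and 16.4, 18.6 and 55.4 CPM in control cells, where the high control library has been named above. For the nuclear members the median log2 difference of LysM-Cre against control was −0.01 in RANKL and −0.01 in M-CSF cultures of day 3, and 0.03 and −0.09 at day 5. For Ndufb7, 1 of the 2 nuclear members with an unadjusted p under 0.05 in M-CSF cultures of day 5, the difference was −0.21 with a 95% interval of −0.39 to −0.03 (adjusted p = 0.726, edgeR). Cox7c had the smallest unadjusted p for a response difference, at day 5, with 0.53 and an interval of 0.15 to 0.92 (adjusted p = 1.00, edgeR).

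Genes that build and regulate the chain were described by lists, with counts to be read against the 29.1% higher and 30.1% lower over all genes in LysM-Cre and the 29.5% higher and 29.7% lower in control cells; the lists were not tested against the members. Of 15 tested complex I assembly factors, 11 were called higher and 2 lower in LysM-Cre cells at day 3, and 12 higher and 1 lower in control cells. In control cells Ecsit rose 4.11-fold, Timmdc1 3.24-fold and Ndufaf1 3.21-fold, while Ndufaf7, a methyltransferase that acts on a complex I subunit, was lower by −0.56 on the log2 scale. Of 21 complex IV assembly factors, 14 were higher and 1 lower in LysM-Cre and 15 higher in control cells, with Cox10 and Cox15, which make haem A, at 3.54-fold and 2.70-fold in LysM-Cre and 3.60-fold and 2.81-fold in control cells. Complex II factors were called higher in 3 of 4 in LysM-Cre and 4 of 4 in control cells, complex III factors in 5 and 4 of 6, with Uqcc1 3.08-fold higher in control cells, and complex V factors in 2 of 5 in both, with Tmem70 2.66-fold higher in control cells. Of 18 electron carrier and ubiquinone genes, 14 were higher and none lower in both genotypes (median log2 1.32 in LysM-Cre and 1.36 in control cells). Cycs, which encodes cytochrome c itself, rose 5.76-fold in LysM-Cre and 6.41-fold in control cells, and the ubiquinone synthesis genes Coq5 and Coq9 rose 3.30-fold and 3.28-fold in control cells.

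Genes that express and maintain mitochondrial DNA were read against the same background. Among 22 genes for transcription and RNA handling, 16 were called higher in LysM-Cre and 17 in control cells at day 3 and none lower. Hsd17b10, a subunit of mitochondrial RNase P, rose 4.65-fold in LysM-Cre and 4.68-fold in control cells. Polrmt, the mitochondrial RNA polymerase, rose 1.33-fold and 1.47-fold, and Tfam, which packages the DNA and helps start its transcription, 1.35-fold and 1.41-fold. Among 10 genes for maintenance of mitochondrial DNA, 4 were higher and 3 lower in both genotypes, close to the background, with Twnk, the replicative helicase, 2.09-fold higher and Polg2, the accessory subunit of the DNA polymerase, lower by −1.14 on the log2 scale in control cells. Of 8 regulators of mitochondrial biogenesis, 3 were higher and 1 lower in LysM-Cre and 4 higher and 2 lower in control cells, numbers too small to set apart from the background. The coactivator Ppargc1b was 28.1-fold higher in LysM-Cre and 22.6-fold higher in control cells (adjusted p = 2.29e-15 and 5.06e-15, edgeR), and the regulator Perm1 13.0-fold and 12.4-fold. Esrra, the estrogen-related receptor that works with Ppargc1b, was 3.17-fold and 2.96-fold higher, while Nrf1, whose motif is capitalised in the promoters above, stood at a log2 fold change of −0.22 in LysM-Cre cells (not called) and −0.27 in control cells (adjusted p = 0.0380, edgeR). At day 5 Nrf1 was higher in RANKL cultures, by 0.42 in LysM-Cre and 0.45 in control cells. Between day 3 and day 5 in RANKL cultures, no assembly factor of complex II or III was called in either genotype, and 8 of the 18 electron carrier and ubiquinone genes were lower and 3 higher in LysM-Cre cells, against 15.6% of all genes lower and 17.6% higher, and 5 were lower and 3 higher in control cells, against 12.7% lower and 14.1% higher.

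Among markers of other cells that marrow cultures can hold, lymphoid ones were lower in RANKL cultures, and stromal and muscle ones overlapped between cultures. Lymphoid markers (6 genes, T and B cell receptors and their partners) summed to 1.61 to 2.07 CPM in LysM-Cre RANKL and 72.5 to 117 CPM in LysM-Cre M-CSF cultures at day 3, with 4 of the 6 genes at 0 in the RANKL group and 2 in the M-CSF group. Neutrophil markers (8 genes, none at 0) summed to 66.5 to 80.2 CPM in LysM-Cre RANKL and 103.9 to 148 CPM in LysM-Cre M-CSF cultures at day 3. At day 5 they overlapped, with 109 to 128 CPM in LysM-Cre RANKL and 127 to 196 CPM in LysM-Cre M-CSF cultures. In control cells the neutrophil sums were lower in RANKL cultures without overlap at either day. Erythroid markers (5 genes) stayed under 1 CPM in every library. In control cells of day 3 lymphoid markers summed to 2.48 to 3.40 CPM in RANKL and 74.9 to 152 CPM in M-CSF cultures. Stromal and muscle markers summed to 27.6 to 354 CPM in LysM-Cre RANKL and 20.6 to 163 CPM in LysM-Cre M-CSF cultures at day 5, and to 31.5 to 92.5 CPM in control RANKL and 15.3 to 144 CPM in control M-CSF cultures. The part of these cells in the respiratory chain levels was not tested.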

How the data were processed

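RNA was extracted with RNeasy kits and made into libraries with a TruSeq RNA kit, per the labels' protocols. The authors deposited gene counts for 24 libraries; STAR, DESeq2 and GRCm39 are named in the submitters' processing notes, without versions, and neither they nor the labels state the strand use. Gene positions in the deposited table equal those of GENCODE M21 on GRCm38 for 98.3% of 54495 shared identifiers and for 93 of 99 members. Counts were tested with edgeR 4.0.16 (R 4.3.3; robust quasi-likelihood, TMM, filterByExpr, 1 coefficient per group over all 24 libraries), with Benjamini-Hochberg adjustment over 15035 genes and a threshold of 0.05. CPM used TMM-scaled library sizes, RPKM the deposited gene length, and percentages raw totals. Totals of 18975750 to 36523995 counts set the precision: 1 read was worth 0.0286 to 0.0541 CPM. Sequence sharing was counted over 75-base stretches of GENCODE M21 transcripts, which are not necessarily the read length. The test script was tested on simulated data.

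The genes named are all mitochondrially encoded members; for each complex the 2 nuclear members with the largest and the 2 with the smallest response in control cells at day 3 (average log2 CPM of at least 1); members called the other way; isoform pairs; the 3 smallest p of each genotype or response comparison; and up to 3 of each other list. Other genes were named after their values were seen. The members, lists and tests were chosen with earlier results of these data known. Alternatives were DESeq2 1.42.0, other scaling, no filter, only the libraries compared, a replicate block, and each library left out. The labels do not say whether replicate numbers pair libraries, and the block was not used in the main test. No 2 libraries of a group agreed within sampling noise (lowest chi-square 3.37 per degree of freedom).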

Additional observations from a re-analysis of the deposited data

Results flagged for a closer look

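The RANKL response differed between day 5 and day 3 by the interaction test (edgeR quasi-likelihood, Benjamini-Hochberg adjusted) for 29 nuclear and 1 mitochondrially encoded member in LysM-Cre cells, and for 43 nuclear members in control cells; all were smaller at day 5. The day 5 minus day 3 differences are log2 values, given for the named members.

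In complexes I and II of LysM-Cre cells, the flavoprotein Ndufv1 differed by −0.76, Ndufs1 by −0.60, Ndufs7, an iron-sulfur subunit, by −0.71, the accessory subunits Ndufa9 and Ndufb6 by −0.67 and −0.80, Sdha by −0.65, Sdhb by −0.61 and Sdhc by −0.60. Reads of Ndufb6 can be split with Smim27, with which 31.3% of its 75-base stretches are shared. In complexes III, IV and V the differences were −0.92 for Cyc1, −0.70 for Uqcrc1, −0.77 for Uqcrc2, −0.49 for Uqcr10, −0.37 for Cox8a, −0.53 for Cox6b1, −0.64 for Atp5b, −0.75 for Atp5g1 and −0.65 for Atp5o, of which 33.0% of stretches occur in the antisense gene Gm15976. The mitochondrially encoded member was mt-Nd3, with −1.16 and 97.8% of stretches shared.

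In control cells Ndufv1 differed by −0.56, Ndufs1 by −0.62, Ndufs7 by −0.85, Ndufa9 by −0.60, Ndufb7 by −0.46, Sdha by −0.47, Sdhb by −0.58 and Sdhc by −0.56. In complexes III and IV the differences were −0.91 for Cyc1, −0.80 for Uqcrc1, −0.69 for Uqcrc2, −0.52 for Uqcrq, −0.85 for Uqcr10, −0.53 for Ndufa4, −0.53 for Cox8a, −0.59 for Cox6b1, −0.46 for Cox6c and −0.83 for Cox7c, and in complex V −0.77 for Atp5b, −0.87 for Atp5g1 and −0.44 for Atp5g2. Whether the genotypes differ in these values was not tested gene by gene beyond the genotype comparisons at each day.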

How the results depend on the processing

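The day 3 and day 5 RANKL counts of members stayed within 1.5 times under every alternative run; with 1 library left out they ran from 77 to 78 (LysM-Cre) and 76 to 77 (control) nuclear members at day 3, and from 73 to 76 and 63 to 69 at day 5. Smaller counts moved. Day 5 against day 3 in LysM-Cre RANKL cultures called 3 mitochondrially encoded members, 1 with no filter, 6 without the libraries numbered 3 and 1 to 4 with 1 library left out; in control RANKL cultures it called 2, 1 with no filter, 1 with the replicate block and 1 to 3 with 1 left out. In M-CSF cultures it called 4 nuclear members in LysM-Cre cells, 1 with only the libraries compared, 8 without the libraries numbered 3 and 2 to 9 with 1 left out, and 7 in control cells, 1 (lower, where most had been higher) with only the libraries compared and 4 to 8 with 1 left out. The response difference called 29 nuclear members in LysM-Cre cells, 16 with only the libraries compared, 48 without the libraries numbered 3 and 12 to 47 with 1 left out; 1 mitochondrially encoded member, 2 with only the libraries compared and 1 to 2 with 1 left out; and 0 in control cells, 1 by DESeq2 and 2 with only the libraries compared. With the TMM-scaled denominator, the nuclear share was 0.673% at day 5 and 0.677% at day 3 in LysM-Cre M-CSF cultures, and the mitochondrially encoded share 1.54% at day 5 and 1.57% at day 3 in control M-CSF cultures. The replicate block changed no other count of members by over 1.5 times. Within a genotype, deviations of same-numbered libraries correlated at −0.131 to 0.530 (median 0.236), those of differently numbered ones with a median of −0.0755, and the LysM-Cre libraries numbered 3 share their Y-linked and Xist pattern. This is a hint from the data that numbers mark a shared source, but not every pair passed 0.1 and not every library correlated best with its own number. Between genotypes, correlations ran from −0.322 to 0.711 for the same number and from −0.786 to 0.801 for other numbers. Correlation alone thus does not identify a shared source. The cause of the changes in called members was not tested, except that fits with fewer libraries have fewer degrees of freedom.

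Of the results on single genes, 3874 kept direction and call, 86 lost the call, 59 gained it, and 31, of genes that were not called, changed sign. The log2 values with 1 library left out span, for RANKL against M-CSF, −0.65 to 0.43 for Cox6b2 in LysM-Cre cells of day 3 and, in control cells of day 5, −0.040 to 0.20 for Atp5e, −0.065 to 0.16 for Ndufv3 and −0.57 to 0.53 for Cox6b2. For day 5 against day 3 in LysM-Cre RANKL cultures they span −0.13 to 0.046 for Ndufa1 (0.0080 with no filter), −0.21 to 0.018 for Cox7c, −0.22 to 0.85 for Cox6b2 (−0.15 without the libraries numbered 3), −0.097 to 0.26 for mt-Co1 (−0.18 without those libraries), −0.16 to 0.059 for mt-Atp6 (0.0160 with no filter) and −0.22 to 0.0035 for mt-Nd4. In control RANKL cultures they span −0.013 to 0.24 for Ndufb2, −0.90 to 0.11 for Cox6b2, −0.014 to 0.20 for mt-Co1, −0.32 to 0.76 for mt-Co3 and −0.17 to 0.029 for mt-Nd4 (0.0036 with no filter). Depth limits Cox4i2, Cox6b2, mt-Atp8 and the untested isoforms, with at most 24 counts in any library.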
